A study of Arabidopsis thaliana with 6 samples.

Results

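The multiple C2 domain and transmembrane region proteins (MCTPs) of Arabidopsis thaliana were described here from transcript levels in the ka120 mutant and the wild type. The list held 10 MCTP loci, chosen by locus identifier, and 9 of them had a probe set that named a single gene, out of 13286 genes so named and 22746 probe sets tested. AT4G00700 was on the list because it was among the 10 largest rises in ka120, so its difference between the genotypes is given as a description with no test. The other loci were listed for their family. The remaining listed locus, AT5G06850 (FTIP1), had no probe set named for it and was not analysed here. Each of the 9 genes was represented by 1 probe set.

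The series compared 3 arrays of ka120, a mutant of an importin-beta family nuclear transport receptor, with 3 arrays of the wild-type accession Col-0 (WT), each from a separate biological replicate. Both genotypes were untreated and grew on soil at 22 degrees C with 12 h of light and 12 h of dark. The sources used here do not name the mutant allele or say where it lies relative to the probes. The records give the age as 3 weeks with whole rosettes in one place and 4 weeks with mature leaf in another.

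MCTPs carry several C2 domains, modules that bind membrane phospholipids, often with calcium, followed by a transmembrane region that anchors them in the endoplasmic reticulum. Members of the family sit at plasmodesmata, the membrane-lined channels between plant cells, where the endoplasmic reticulum lies close to the plasma membrane and where MCTPs tether the 2 membranes. FTIP1 is known for binding the flowering signal FT and helping it leave phloem companion cells. QUIRKY (QKY), another MCTP, acts with the receptor kinase STRUBBELIG in shaping organs.

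Of the listed leaf markers 1 of 6 was measured, the Rubisco activase RCA, which lay between 12.94 and 13.20 on the log2 scale on all 6 arrays, at percentile 100 of all probe sets. The root hair expansin EXPA7, 1 of 5 root markers, lay between 3.71 and 3.98, and FMA, 1 of 4 guard cell markers, between 4.54 and 4.80. None of the 3 passed the test, with log2 differences (ka120 minus WT) of -0.09, -0.01 and -0.04. The listed flower and phloem markers were not analysed here. Array medians lay between 4.63 and 4.79. The probe set for KA120 (AT3G08960) was dim, at 3.65, 4.12 and 4.17 in ka120 and 4.55, 4.34 and 4.42 in WT. It was called lower, with a log2 difference of -0.45 (limma adjusted p = 0.0222), but lost the call without ka120 replicate 1, without WT replicate 1 and under both scalings based on hybridization controls (transcripts of other organisms added in known amounts), so it is a weak check of the genotype. In leaf RNA of this kind, fewer cells of a type and less RNA per cell cannot be told apart.

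AT4G00700 had log2 levels of 7.44, 7.69 and 7.42 in ka120 and 4.18, 3.75 and 3.30 in WT. The lowest ka120 array stood 3.23 above the highest WT array. The means were 7.52 ± 0.15 in ka120 and 3.74 ± 0.44 in WT (SD, n = 3 arrays each). They differed by 3.77 on the log2 scale. This rise ranked 25 among the 22746 probe sets and 5 among the named genes whose arrays did not overlap. The 10th named rise, AT5G55450, was 3.35 on the log2 scale, and the 11th, AT1G13470, which falls just outside the choice, was 3.31.

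The level of AT4G00700 in WT lay at percentile 37.1 of all probe sets and was not shown to exceed background, so the difference of 3.77 and its rank are those of the deposited levels and are not given as a fold of transcript. In ka120 it lay at percentile 84.9. Its arrays of 1 genotype were also spread widely: the pooled SD within a genotype was 0.33, at percentile 98.8 of all probe sets. Most of that spread came from WT, where the values ran from 3.30 to 4.18. With each array left out in turn the difference stayed between 3.55 and 3.99.

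**Figure D1:**
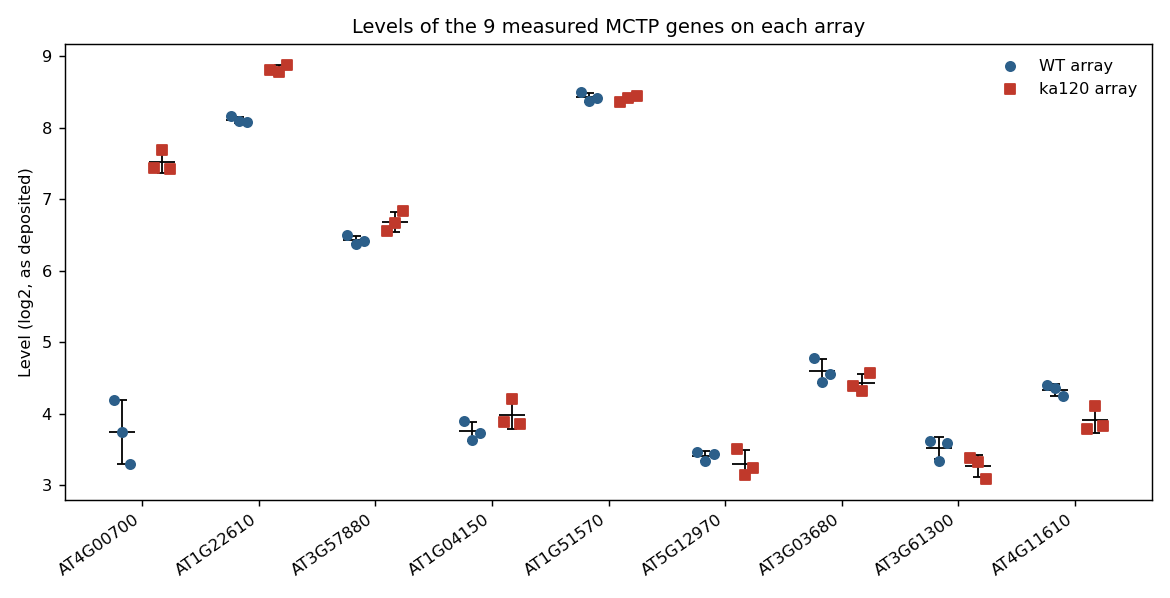
Deposited log2 level (vertical axis) of the 9 measured MCTP genes on each array, with WT as circles and ka120 as squares; black bars show the mean and SD of 3 arrays. The AT4G00700 arrays are separated by 3.23 on the log2 scale, while 5 of the 9 genes have overlapping arrays.

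Among the 9 measured genes 2 were called higher and 1 lower in ka120 at an adjusted p under 0.05 (limma, Benjamini-Hochberg over all probe sets). Over the whole array 35.9% of probe sets were called, 19.4% higher and 16.5% lower. AT4G00700, chosen for its rise, is 1 of the 2 higher calls, so 2 of the other 8 genes were called, 1 in each direction. Their median log2 difference was -0.07, against -0.02 for all probe sets. The 3 ka120 arrays and the 3 WT arrays did not overlap for 4 of the 9 genes, of which AT4G00700 was chosen for its rise. Among the other 8 genes they did not overlap for 3, 2 with ka120 above and 1 with ka120 below. The same held for 46.6% of all probe sets, 23.8% with ka120 above and 22.8% with ka120 below.

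AT1G22610 was the other MCTP gene that rose. Its ka120 arrays gave 8.81, 8.78 and 8.88, and its WT arrays 8.16, 8.10 and 8.08 (log2 level). All ka120 arrays were higher, with a gap of 0.62 between the nearest arrays of the 2 genotypes. The log2 difference was 0.71 (SE 0.09, 95% confidence interval 0.52 to 0.90, limma adjusted p = 7.36e-05, higher in 3 of 3 ka120 arrays). This probe set was bright, at percentile 90.0 in WT, and its spread within a genotype was small, with a pooled SD of 0.05 at percentile 3.82 of all probe sets. It was called higher in each alternative tried, with log2 differences between 0.59 and 1.05.

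AT4G11610 fell in ka120. Its log2 levels were 3.79, 4.11 and 3.83 in ka120 and 4.40, 4.36 and 4.25 in WT. The arrays did not overlap, but the gap between the nearest was 0.13. The log2 difference was -0.42 (SE 0.11, 95% confidence interval -0.66 to -0.19, limma adjusted p = 0.00941). The call was lost without ka120 replicate 1 (-0.36, limma adjusted p = 0.0507) and after centring on the hybridization controls (-0.20, limma adjusted p = 0.216). Once the shift of those controls, which changed with their brightness, had been subtracted (the level-dependent control offset), the difference was 0.015 (limma adjusted p = 0.92). BioB, the dimmest of these controls, lay at percentile 87.0 in WT, so for dimmer probe sets, AT4G11610 among them, this offset is the shift of BioB carried below the range of the controls. The probe set was dim, at percentile 46.1 in WT and 39.4 in ka120.

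**Figure D2:**
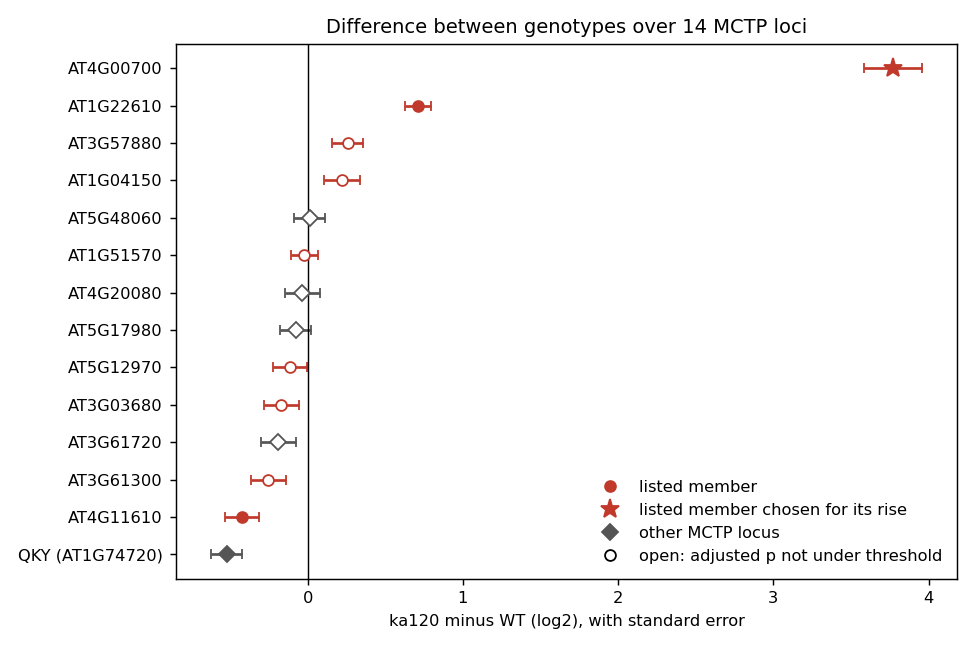
Log2 difference between ka120 and WT (horizontal axis, ka120 minus WT, with standard error) for the 9 measured listed genes and 5 further MCTP loci; filled symbols passed the adjusted p threshold, open symbols did not, and the star marks AT4G00700, chosen for its rise. AT4G00700 stands at 3.77, AT1G22610 at 0.71, and the remaining 12 loci lie between -0.52 and 0.26.

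The other 6 measured genes did not pass the test, and their log2 differences lay between -0.25 and 0.26. AT3G57880 gave 6.56, 6.67 and 6.84 in ka120 and 6.50, 6.38 and 6.42 in WT. Its arrays did not overlap, although the gap was 0.06. The log2 difference was 0.26 (95% confidence interval 0.04 to 0.48), with an adjusted p of 0.066 in limma. The intervals are not adjusted for the number of probe sets tested, so this one excludes 0 although the gene did not pass. It passed with the dimmest 40% of probe sets left out (limma adjusted p = 0.0492), where the adjustment ran over 13648 probe sets. It also passed at 0.48 after centring on the hybridization controls (limma adjusted p = 0.00385) and at 0.70 with the level-dependent control offset (3.92e-05), and median centring brought it down to 0.13 (limma adjusted p = 0.283).

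AT3G61300 gave 3.38, 3.32 and 3.09 in ka120 and 3.62, 3.34 and 3.59 in WT. The highest ka120 array lay above the lowest WT array, so the groups overlapped. The log2 difference was -0.25 (95% confidence interval, not adjusted, -0.50 to -0.004, limma adjusted p = 0.11). This probe set was dim in both genotypes, at percentiles 32.0 and 25.5 in WT and ka120.

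AT1G51570 was bright, at percentile 92.0 in both genotypes. It gave 8.36, 8.41 and 8.45 in ka120 and 8.50, 8.37 and 8.42 in WT. The arrays were mixed, and the log2 difference was -0.02. Its 95% confidence interval ran from -0.21 to 0.17, so a change as large as that of AT1G22610 lies outside it.

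AT1G04150 gave 3.89, 4.20 and 3.85 in ka120 and 3.90, 3.64 and 3.73 in WT, a log2 difference of 0.22 (95% confidence interval -0.03 to 0.48, limma adjusted p = 0.173). WT replicate 1 lay above 2 of the 3 ka120 arrays. AT3G03680 gave 4.38, 4.32 and 4.57 in ka120 and 4.78, 4.45 and 4.55 in WT, a log2 difference of -0.17 (95% confidence interval -0.41 to 0.08, limma adjusted p = 0.283). AT5G12970 gave 3.51, 3.14 and 3.23 in ka120 and 3.46, 3.33 and 3.43 in WT, a log2 difference of -0.11 (95% confidence interval -0.35 to 0.13, limma adjusted p = 0.483). In these genes the arrays of the genotypes overlapped, and each interval includes 0.

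The brightness of the 9 probe sets was set against percentile 50 of all probe sets, a cut taken for description. AT1G22610, AT1G51570 and AT3G57880 lay above it in both genotypes, and 5 genes, called dim here, lay below it in both. Among the dim genes AT3G03680 lay close to the cut, at percentile 49.4 in WT. AT4G00700 was the 1 gene that lay below it in WT and above it in ka120. The 5 dim genes were not shown to exceed background. Levels of different probe sets cannot be set against each other, so these percentiles say how bright a probe set was and not which gene had more transcript.

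In order of their differences, AT4G00700 came first, then AT1G22610, then AT3G57880 and AT1G04150. The 95% intervals of AT1G22610 (0.52 to 0.90) and of AT3G57880 (0.04 to 0.48) did not overlap. From AT3G57880 down to AT4G11610, each gene's interval overlapped that of its neighbour in the order. Of the 8 genes other than AT4G00700, 3 had a positive and 5 a negative difference.

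The direction of the small differences depended on the scaling of the arrays. The hybridization controls, bacterial and phage transcripts, were lower in ka120 at their dim end (BioB by -0.44 on the log2 scale) and not at their bright end (Cre, 0.02). All probe sets together had a median difference of -0.02 in the deposited values. Median centring moved it to -0.15, centring on the hybridization controls to 0.21, and the level-dependent control offset to 0.41. Over these 4 scalings and quantile normalization, AT4G00700, AT1G22610, AT3G57880 and AT1G04150 had positive differences throughout, and the other 5 measured genes changed sign. AT1G04150 was called higher under both control-based scalings (0.45 and 0.66, limma adjusted p = 0.00777 and 7.68e-05). These scalings called 7971 and 15457 of all 22746 probe sets higher, and adjusted p-values under them are too small. Relative to the median of all probe sets AT1G04150 lay at 0.25 under both and in the deposited values, and at 0.21 after quantile normalization. AT3G61300 was called lower after median centring (-0.38, limma adjusted p = 0.0219), where 6235 of all probe sets were called lower. Median centring and centring on the hybridization controls move every probe set alike, so values taken relative to the median of all probe sets can differ only under quantile normalization and the level-dependent offset. Relative to that median 4 genes were positive and 4 negative in the deposited values and under both of these, and AT1G51570 changed sign. On the same relative scale AT4G00700 lay between 3.75 and 3.80, AT1G22610 between 0.64 and 0.78, and AT4G11610 between -0.46 and -0.39.

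**Figure D3:**
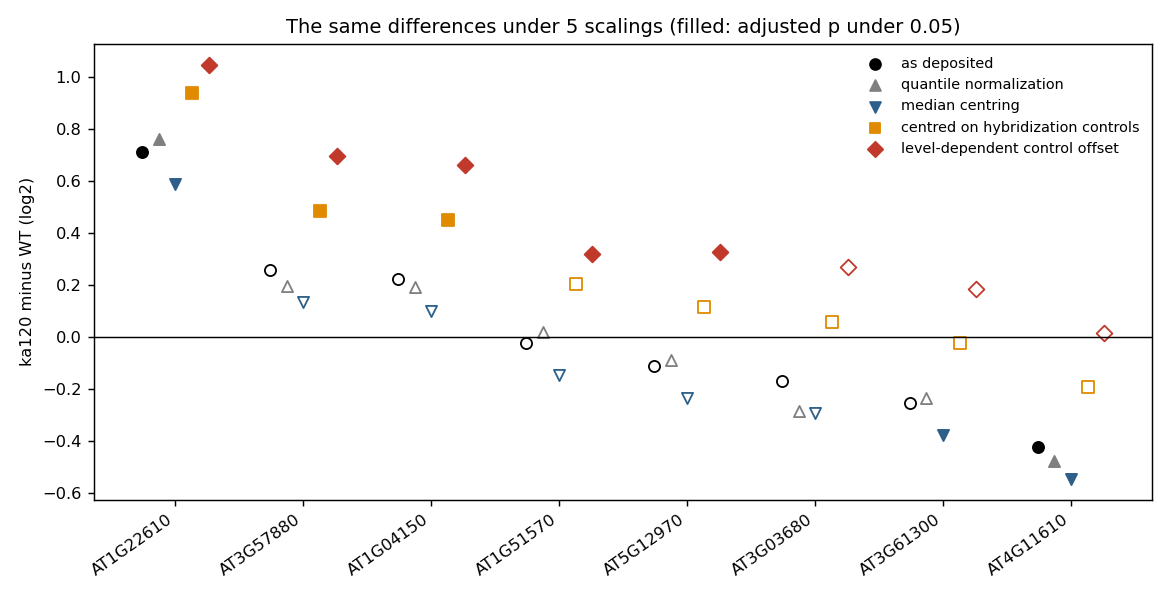
Log2 difference between ka120 and WT (vertical axis) of the 8 measured genes other than AT4G00700 under 5 scalings of the arrays; filled symbols had a limma adjusted p under 0.05. AT1G22610 stays between 0.59 and 1.05 and is called each time, while AT4G11610 moves from -0.55 after median centring to 0.015 with the level-dependent control offset.

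Beyond the list, 6 further MCTP loci were set out as the rest of the family, and 5 of them were measured, with 0 called higher and 1 lower. QKY (AT1G74720) fell. It gave 5.82, 5.67 and 5.88 in ka120 and 6.18, 6.32 and 6.43 in WT (log2 level), and all WT arrays were higher. The log2 difference was -0.52 (SE 0.10, limma adjusted p = 0.00189). Its difference was negative under all 5 scalings, but the call was lost after centring on the hybridization controls (-0.29, limma adjusted p = 0.0519). The level-dependent control offset ended the call too (-0.08, limma adjusted p = 0.573). QKY lay at percentile 70.9 in WT, below BioB, so for it this offset is carried below the range of the controls. Relative to the median of all probe sets QKY lay at -0.50 as deposited, -0.59 after quantile normalization and -0.49 with the offset.

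AT5G48060, AT4G20080, AT5G17980 and AT3G61720 gave log2 differences of 0.01, -0.03, -0.08 and -0.19, and in each of them the arrays of the genotypes overlapped. AT3G61720 was called lower after median centring (-0.31, limma adjusted p = 0.0444), where 6235 of all 22746 probe sets were called lower. Under the level-dependent control offset AT5G48060, AT4G20080 and AT5G17980 were called higher, at 0.45, 0.40 and 0.36. That offset called 15457 of all probe sets higher, and the median of all was 0.41. Relative to that median these loci lay at 0.04, -0.002 and -0.05. In the deposited values 2 of all 14 measured MCTP loci were called higher, AT4G00700 chosen for its rise and AT1G22610, and 2 lower. Over the whole array 19.4% of probe sets were called higher and 16.5% lower. The median log2 difference of the 14 was -0.06.

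The named genes outside the list whose profile lay nearest to that of AT4G00700 were AT5G59670, AT3G28540 and AT5G52760. Likeness was the root mean square distance over the 6 arrays between levels taken as deviations from each gene's own WT mean, among 13277 named genes. The distances were 0.17, 0.18 and 0.19 on the log2 scale, against a median of 2.70 over named genes. AT5G59670 gave 7.48, 7.42 and 7.54 in ka120 and 4.17, 3.78 and 3.54 in WT. All 3 genes had their highest WT level on WT replicate 1 and their lowest on WT replicate 3, as AT4G00700 did. The WT deviations entered the distance, so this like order is in part built into the choice and is no separate observation. These genes are also among the 10 largest named rises, so the measure of likeness rests largely on the size of the rise.

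**Figure D4:**
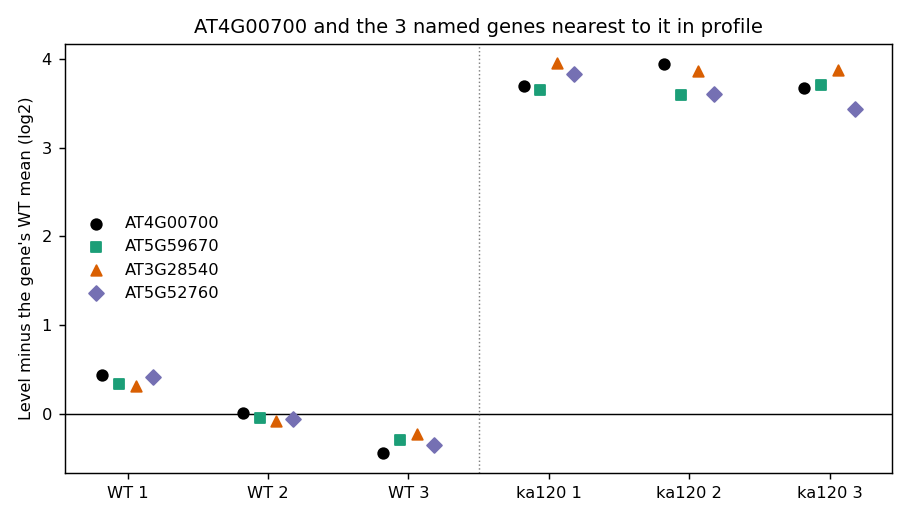
Log2 level minus the gene's own WT mean (vertical axis) on each of the 6 arrays for AT4G00700 and the 3 named genes nearest to it in profile. All 4 genes lie well above their WT mean on the ka120 arrays, and within WT each is highest on replicate 1 and lowest on replicate 3. The WT arrays entered the choice of the 3 genes, so the like WT order is in part built in.

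The MCTP loci are spread over chromosomes 1, 3, 4 and 5 in the TAIR10.1 gene table, and none of the 16 lies directly beside another; the closest pair, AT3G61300 and AT3G61720, has 53 genes between its members. AT4G00700 was therefore set beside its measured neighbours on chromosome 4. ULP1B (AT4G00690), with 2 genes between, gave 2.95, 2.78 and 2.59 in ka120 and 2.62, 2.67 and 2.64 in WT, with a log2 difference of 0.13 (limma adjusted p = 0.388). AT4G00750, with 4 genes between, gave 5.12, 5.26 and 5.29 in ka120 and 6.60, 6.61 and 6.41 in WT. It fell by 1.32 on the log2 scale, in the opposite direction to AT4G00700 (limma, SE 0.10), and its arrays did not overlap.

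Other genes of membrane tethering and of plasmodesmata were measured in small numbers. Of 7 listed synaptotagmins, C2 domain proteins that join the endoplasmic reticulum to the plasma membrane, 1 was measured. ATSYTF (AT3G18370) gave 6.10, 6.27 and 6.09 in ka120 and 5.15, 5.47 and 5.40 in WT, and rose by 0.81 on the log2 scale (SE 0.11, limma). Of 6 listed small C2 domain and copine genes 1 was measured, SRC2 (AT1G09070), which encodes a C2 domain protein. It gave 8.92, 9.03 and 8.94 in ka120 and 8.06, 8.01 and 7.99 in WT, and rose by 0.94 (SE 0.09, limma). In both genes all ka120 arrays lay above all WT arrays, which held for 23.8% of all probe sets, while 19.4% were called higher. Their differences under the other scalings are not given here.

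Of 7 listed callose-binding proteins and glucanases of plasmodesmata, which control the callose that narrows the channel, 3 were measured. Of these 1 was called higher, against 19.4% of all probe sets. AT3G13560 gave 8.44, 8.34 and 8.36 in ka120 and 7.36, 6.96 and 7.18 in WT, a rise of 1.21 (SE 0.11, limma). AT2G01630 and AT1G66250 gave log2 differences of -0.06 and -0.20 and did not pass the test. Of 9 listed genes of FT transport and of MCTP partners, FD, the transcription factor that works with FT, was measured and gave 0.05 (limma adjusted p = 0.826). The listed plasmodesmata-located proteins and callose synthases were not analysed here.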

How the data were processed

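Biotin-labelled RNA of each sample was hybridized to 1 array, per the labels' protocols. The authors deposited log2 levels, 1 per probe set and array; affy is named per the submitters' processing notes, and the sources used here do not give the background correction, normalization or summary. The deposited table had 22810 rows, and 64 array controls were not tested. Genes were named by the platform annotation, matched by gene identifier to the TAIR10.1 gene table: 13513 probe sets had 1 gene (13436 matched), 503 several and 8730 none. A gene's brightest probe set represented it.

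The genotype in each sample's title gave its group. Differences were fitted on the log2 values over all tested probe sets with lmFit and eBayes of limma 3.58.1 (R 4.3.3), without block or filter, with Benjamini-Hochberg adjustment over all 22746 and a threshold of 0.05. Confidence intervals are those of each gene alone and are not adjusted for the number of probe sets tested. The number of arrays limits the precision. The fit was tested on simulated data. Members, lists and alternatives were chosen with earlier results of these data known. The naming rule took all measured members, the 3 genes nearest in profile to AT4G00700, its measured neighbour on each side, KA120, and the measured members of the lists. Alternatives were 4 other scalings, array weights, a replicate block, a robust prior with an intensity trend, omission of the dimmest 40% of probe sets, each array left out, averaging a gene's probe sets, and single-gene probe sets only. Between arrays of the same number, deviations from the group means had correlations of -0.01, -0.19 and 0.13, so the replicate numbers were not taken as pairs.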

Additional observations from a re-analysis of the deposited data

How the results depend on the processing

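Of the 9 MCTP genes, 3 were called (2 higher, 1 lower). The level-dependent control offset gave 6 (6 higher, 0 lower), centring on hybridization controls 4 (4 higher, 0 lower) and median centring 4 (2 higher, 2 lower). Removal of the dimmest 40% of probe sets tested 6 of the genes and gave 4 (3 higher, 1 lower), among them AT4G00700, chosen for its rise. Brightness there was the mean of all 6 arrays. In WT alone AT4G00700 lay at percentile 37.1, so its ka120 level kept it in. Calls over all probe sets under these settings are given below. With each array left out the count was 2 to 3, with 2 higher and 0 to 1 lower; it was 2, with 0 lower, without ka120 replicate 1. The replicate block gave 3 and changed no call among these genes. Under the level-dependent control offset, carried on from BioB for the dim genes, AT1G51570 (0.32), AT5G12970 (0.33), AT3G03680 (0.27), AT3G61300 (0.18) and AT4G11610 (0.015) turned positive. Each of them lay below the median of all probe sets under that offset, 0.41. The first 2 were called higher, although they lay at -0.09 and -0.08 relative to that median. In the deposited values 4405 of all 22746 probe sets were called higher and 3760 lower. With the dimmest 40% left out, 4091 were called higher and 3505 lower of 13648. Of the 22746, higher and lower calls numbered 3318 and 6235 after median centring and 7971 and 1955 after centring on hybridization controls. With the level-dependent control offset they numbered 15457 and 1382. These scalings shift all differences by construction, and noise of the controls is shared by all probe sets, so adjusted p-values under the control-based ones are too small. With each array left out, higher calls numbered 3667 to 4289 and lower calls 3061 to 3605. Deposited values carry no detection call, so signal over background of the dim genes is unknown.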

Other observations

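The WT array on which AT4G00700 was highest was also the highest WT array for other genes that rose strongly. Of the 12 largest rises among named genes, AT4G00700 included, 11 had their highest WT level on WT replicate 1, against 37.8% of all 22746 probe sets. In these 12 genes WT replicate 1 stood a median of 0.49 above the mean of the other WT arrays on the log2 scale, against 0.01 over all probe sets. For AT1G35710 the WT arrays gave 5.28, 4.32 and 4.56, and for AT5G55450 they gave 5.63, 4.97 and 4.33. These were the genes with the largest WT SDs among the 12. The size of the spread was not shared: the WT SD ran from 0.16 (AT1G43910) to 0.65 (AT5G55450), with 0.44 for AT4G00700. The exception to the order was AT1G76960, with 5.40, 5.48 and 5.09. The shared order was noticed after the values had been seen, and its cause was not tested. All 12 genes were read from the same WT arrays, so the 11 are not separate observations of that order. Without WT replicate 1 the number of MCTP genes called was 3, as with all arrays.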
